A study of Mus musculus with 4 samples.

Results

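The genes described here are the tumour suppressor gene Trp53, its 2 Mdm inhibitors and 7 of its target genes, in cells of mouse gliomas driven by PDGF-B. They were named as a list of 10 genes, with earlier results of these data known. They were found as the probe sets whose only annotated symbol was among the 10, with the brightest probe set kept for each gene. Of the 10, 9 were measured, each by 1 probe set, out of 19937 genes in all. Trp53 was matched to no probe set by this rule and is not analysed here.

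All mice were of the C57/Bl6 background strain. Each tumour arose from a retrovirus that encoded PDGF-B together with EGFP and was injected at embryonic day 14, and pups were followed until glioma symptoms appeared. Dissociated tumours were passed through a cell sorter and the EGFP-positive cells kept, so that every sample carries the same overexpressed PDGF-B and EGFP. The early-onset, low-grade group held 2 samples, each a pool of cells from 2 tumours, here pool 1 and pool 2. The late-onset, high-grade group also held 2 samples, each from 1 tumour, here tumour 1 and tumour 2. An average over 2 tumours is thus compared with single tumours, and onset and grade cannot be told apart. The ages of the mice and normal brain cells were not analysed here.

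p53 is a transcription factor that stress and oncogene signals stabilise, and that switches on genes of cell cycle arrest, cell death, repair and metabolism. Mdm2 marks p53 for degradation, Mdm4 holds its activity down, and Mdm2 is itself a p53 target, which closes a negative feedback loop. In glioma this circuit is often broken, by mutation of the p53 gene, by loss of the CDKN2A locus, whose ARF protein restrains Mdm2, or by extra copies of MDM2 or MDM4.

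Marker genes of other cells differed between the groups and are given first, since the members are read beside them. All differences are late-onset minus early-onset, on the log2 scale, where 1 unit is a doubling. A gene was called, and said to have risen or fallen, at a Benjamini-Hochberg adjusted p under 0.05 in a limma fit over all genes. For comparison with the counts below, 8.12% of all genes fell and 6.59% rose. Of 14 microglia and macrophage markers 13 fell, led by Itgam (-4.23) and Csf1r (-4.11). Their summed linear values were 28970 and 25704 in the pools, and 1732 and 2582 in the tumours. Of 8 astrocyte markers 4 fell, at a median of -0.92. Of 8 neuron markers 4 fell, Snap25 by 1.85, and 1 rose, Tubb3 (1.86), at a median of -0.73. Of 7 mature oligodendrocyte markers 2 fell, Mobp (-2.62) and Mbp (-1.45), and 1 rose, Myrf (1.39), picked with its value known. The calls of Mobp and Mbp were lost without either pool, that of Snap25 without pool 2 and that of Myrf without tumour 1. Fewer astrocyte and neuron markers were called without pool 1, pool 2 or tumour 1. With 1 sample left out, their medians ran from -1.15 to -0.72 for astrocyte and from -0.78 to -0.61 for neuron markers. Mobp was not called by the robust fit. Between the tumours the myeloid markers had a median gap, tumour 1 minus tumour 2, of -0.59, higher in tumour 2 for 11 of 14. The median gap was -1.10 for endothelial and mural, -0.83 for oligodendrocyte, -0.32 for astrocyte and -0.003 for neuron markers. It was 0.04 for oligodendrocyte progenitor markers and 0.10 for T and B cell markers. The members went both ways there, from 0.70 for Eda2r to -0.23 for Mdm2. Markers of oligodendrocyte progenitors were bright on every array, with medians from 11.89 to 12.28 over 7 genes, 1 of which fell, Pdgfra (-0.45, adjusted p 0.041). That call was lost without each of the 4 samples in turn, after quantile normalization and after each array was centred on its median. All 7 progenitor markers had differences below 0, as did 51.7% of all genes, at a median of -0.34. In 5 of the 7 both tumours lay below both pools, as in 30.4% of all genes. The count called lower was 4 of 7 with a variance trend in the fit, beside 15.4% of all genes called. It was also 4 of 7 after cyclic loess, beside 14.7%. In these bulk samples, fewer cells of a type and less RNA per cell cannot be told apart. The part of the myeloid, astrocyte, neuron and oligodendrocyte markers in the members' differences below was not tested.

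Promoters are shown for 3 members that were lower in late-onset cells, Eda2r, Ccng1 and Sesn2, and for Mdm2, which was not called, so that the letters can be read beside the values. Each is the 250 bases before a RefSeq transcription start (GRCm38.p6), 5′ to 3′ on the gene's own strand. The windows are chrX:97377210-97377459 for Eda2r, chr11:40755287-40755536 for Ccng1, chr4:132510457-132510706 for Sesn2 and chr10:117710759-117711008 for Mdm2, all on the minus strand. Capitals mark matches to the p53 decamer, of which a p53 response element holds a pair, with its central C and G kept and at most 1 other letter off. The decamer reads the same on both strands.
Eda2r: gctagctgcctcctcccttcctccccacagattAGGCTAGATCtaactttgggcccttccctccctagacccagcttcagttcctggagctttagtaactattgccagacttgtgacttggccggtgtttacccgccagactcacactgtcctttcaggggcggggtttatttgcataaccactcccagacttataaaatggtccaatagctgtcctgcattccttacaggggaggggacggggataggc
Ccng1: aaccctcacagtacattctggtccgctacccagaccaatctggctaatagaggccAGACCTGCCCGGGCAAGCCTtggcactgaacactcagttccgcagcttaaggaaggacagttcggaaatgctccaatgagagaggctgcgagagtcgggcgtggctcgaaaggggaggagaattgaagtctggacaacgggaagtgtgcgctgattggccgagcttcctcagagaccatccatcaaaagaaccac
Sesn2: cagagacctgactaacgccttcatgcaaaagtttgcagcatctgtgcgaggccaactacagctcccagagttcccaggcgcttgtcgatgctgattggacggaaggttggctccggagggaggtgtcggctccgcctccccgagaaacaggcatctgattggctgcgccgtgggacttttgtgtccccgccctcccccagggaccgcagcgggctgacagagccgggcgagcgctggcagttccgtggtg
Mdm2: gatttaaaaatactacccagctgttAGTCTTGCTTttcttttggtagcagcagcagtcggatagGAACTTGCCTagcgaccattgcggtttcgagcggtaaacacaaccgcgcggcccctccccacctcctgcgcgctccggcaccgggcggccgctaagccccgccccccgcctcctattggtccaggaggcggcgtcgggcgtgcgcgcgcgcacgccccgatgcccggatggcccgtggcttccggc

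The Ccng1 window held 2 decamers side by side, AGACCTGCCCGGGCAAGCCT, beginning 195 bases before the start, with 1 letter off in all. Such an adjoining pair was found in 19 of the 32851 promoter windows of the table (0.0578%), and the limit of 1 letter was set with the Ccng1 sequence in view. The Mdm2 window held a decamer with every letter matched, GAACTTGCCT, 186 bases before the start, and another with 1 letter off. A fully matched decamer occurred in 7.13% of all windows and one with at most 1 letter off in 44.7%. The single match in the Eda2r window is thus common by this measure. Of 9 member windows, 3 held a full match, in Ccng1, Mdm2 and Sesn1. With at most 1 letter off the count was 5, with Eda2r and Mdm4 added. Like Mdm2, Mdm4 and Sesn1 were not called. The Eda2r window was the only one of 9 member windows with TATAAA, searched on both strands and present in 12.4% of all windows. The Sesn2 window held no decamer. It had the CCAAT motif, as did 33.8% of all windows on either strand, and GGGCGG, as did 32.7%. Of the 9 measured members, 7 were matched in the promoter table, by 9 windows. Mdm2 is known to answer to p53 through an internal promoter in its first intron, which lies outside the window printed here.

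Of the 7 target genes of p53, 4 fell in late-onset cells, and neither Mdm gene was called. Sample values are the deposited log2 probe set values. Of the 9 members, 4 fell and 0 rose: Eda2r, Trp53inp1, Ccng1 and Sesn2. Over all genes 14.7% were called, 8.12% as lower and 6.59% as higher. The median difference was -0.54 over the 9 members and -0.01 over all genes. In 6 of the 9 members both tumours lay below both pools, as in 30.4% of all genes, and in 0 of the 9 both lay above, as in 28.5% of all genes. The groups did not overlap in 58.9% of all genes. Each sample is labelled a biological replicate, but with 2 in a group the p-values measure the spread between these samples alone.

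The count of called members depended on which samples were kept. It was 2 of 9 without pool 1, when 4.73% of all genes were called, and 4 of 9 without pool 2, when 4.26% were. It was 1 of 9 without tumour 1, beside 12.9% of all genes, and 1 of 9 without tumour 2, beside 10.9%. Eda2r was called in each of these. With the replicate number as a block, 3 of 9 members and 9.19% of all genes were called. The count of members was 4 of 9 after each array was centred on its median (20.3% of all genes). With dim genes removed it was 4 of 9 when the lowest quartile was dropped (20.3% of the genes kept) and 5 of 9 when only genes above the median level were kept (27.6%).

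**Figure D1:**
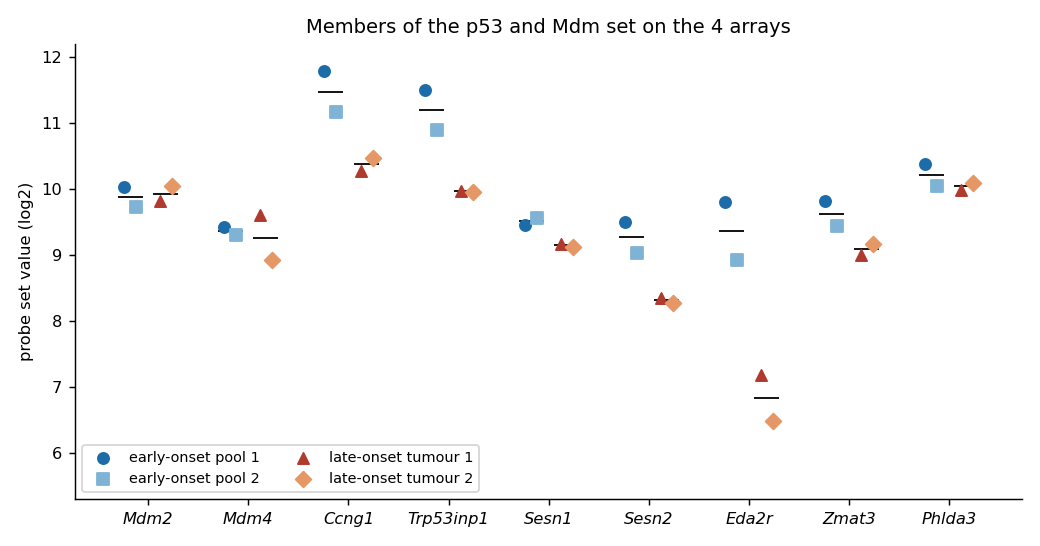
Probe set values (log2, y axis) of the 9 measured members on the 4 arrays, with circles and squares for early-onset pools, triangles and diamonds for late-onset tumours, and short black lines for group means (n = 2). Ccng1, Trp53inp1, Sesn1, Sesn2, Eda2r and Zmat3 are lower in both tumours than in both pools, and the groups overlap for Mdm2, Mdm4 and Phlda3.

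The Mdm genes come first as the inhibitors of p53. Mdm2, the E3 ubiquitin ligase that targets p53, stood at 10.03 in pool 1, 9.73 in pool 2, 9.81 in tumour 1 and 10.04 in tumour 2. The groups overlapped. The difference was 0.05 (SE 0.15, 95% interval -0.33 to 0.43, adjusted p 0.866), and its sign changed after quantile normalization, after cyclic loess and without pool 2 or tumour 2. The missing call does not show equal levels.

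Mdm4, a relative of Mdm2 that binds and inhibits p53, stood at 9.42 in pool 1, 9.30 in pool 2, 9.60 in tumour 1 and 8.92 in tumour 2. One tumour lay above both pools and the other below them. The difference was -0.10 (SE 0.23, 95% interval -0.69 to 0.49, adjusted p 0.823), and it was 0.06 after each array was centred on its median. Without tumour 2 it was 0.24, and without tumour 1 it was -0.44.

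The gap between the tumours in Mdm4 has a counterpart on its chromosome. Mdm4 lies on chromosome 1, where tumour 1 minus tumour 2 had a median of 0.40 over 578 genes brighter than the median gene. On the 19 other chromosomes the same median ran from -0.06 to -0.02. In Mdm4 tumour 1 was 0.68 higher, above 89.3% of those chromosome 1 genes. Phlda3, which encodes a pleckstrin homology protein that competes with Akt for membrane lipids, lies on the same chromosome. There tumour 1 minus tumour 2 was -0.11, and 5.19% of the chromosome 1 genes lay lower. In late-onset minus early-onset, the same chromosome 1 genes had a median of 0.24, while the medians of the other chromosomes ran from -0.004 to 0.10. What separates the tumours or the groups on chromosome 1 was not tested.

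**Figure D2:**
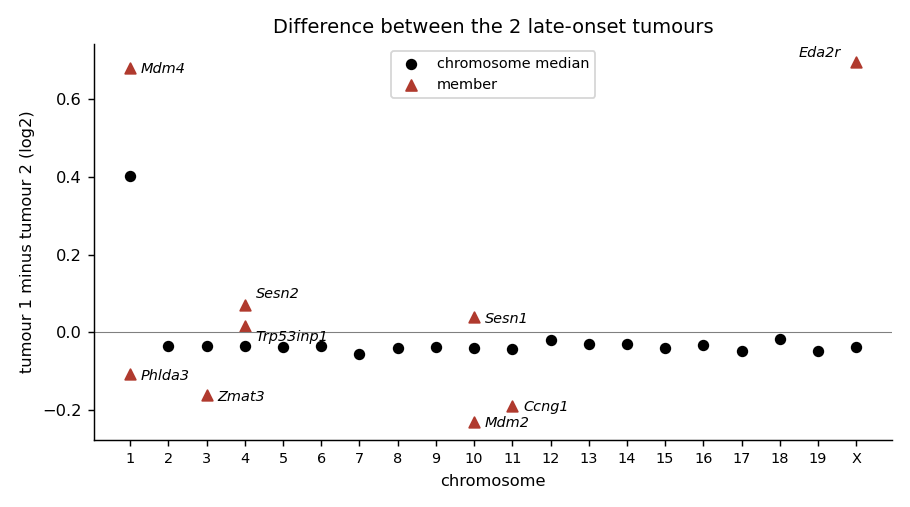
Tumour 1 minus tumour 2 (log2, y axis) by chromosome (x axis), with black circles for the median of genes brighter than the median gene and red triangles for the 9 members. Chromosome 1 stands at 0.40, against -0.06 to -0.02 for the others, and Mdm4 (0.68) and Eda2r (0.70) are the members with the largest gaps.

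Phlda3 itself stood at 10.38 in pool 1, 10.04 in pool 2, 9.99 in tumour 1 and 10.10 in tumour 2. Tumour 2 lay between the pools. The difference was -0.17 (SE 0.14, 95% interval -0.53 to 0.20, adjusted p 0.511), and it was 0.0032 without pool 1.

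Eda2r showed the largest difference of the 9. It encodes a receptor of the tumour necrosis factor family for the A2 form of ectodysplasin. It stood at 9.81 in pool 1 and 8.93 in pool 2, and at 7.17 in tumour 1 and 6.48 in tumour 2. Both tumours were far below both pools, although the samples within each group also differed. The level fell by 2.54 on the log2 scale (SE 0.36, adjusted p 0.0129) or 5.84-fold, and the difference ranked 138 from the lowest among 19937 genes. The call held in all 15 alternative settings, with differences from -2.98 to -2.11.

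Eda2r lies on the X chromosome, and the labels do not give the sex of the mice. Xist, the RNA of the inactive X chromosome, stood at 11.71 in pool 1, 11.30 in pool 2, 4.97 in tumour 1 and 11.35 in tumour 2. Uty, a gene of the Y chromosome, stood at 7.91 in pool 1, 8.50 in pool 2, 8.82 in tumour 1 and 3.85 in tumour 2. Both pools thus had Xist and Uty, while tumour 1 had little Xist and tumour 2 little Uty. Both tumours lay below both pools in Eda2r. The X chromosome as a whole had a median difference of 0.04 between the groups over 322 genes brighter than the median gene. That median does not speak for any single gene, and the part of sex in the Eda2r difference was not tested.

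Trp53inp1, a stress-induced nuclear protein that promotes p53 phosphorylation and also acts in autophagy, stood at 11.50 and 10.90 in pools 1 and 2. It stood at 9.98 in tumour 1 and 9.96 in tumour 2, so that the tumours were nearly equal and the pools were not. It fell by 1.23 (SE 0.21, adjusted p 0.0205), a 2.35-fold lower level. Without tumour 1 (-1.24, adjusted p 0.0503) or tumour 2 (-1.23, 0.0573) the call was lost, with the lone tumour assumed to vary like the pools.

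Ccng1, or cyclin G1, recruits a phosphatase to Mdm2. It stood at 11.79 in pool 1, 11.16 in pool 2, 10.28 in tumour 1 and 10.47 in tumour 2. Both tumours lay below both pools. It fell by 1.10 (SE 0.22, adjusted p 0.0325), a 2.15-fold lower level. It was no longer called when pool 1 (-0.79, adjusted p 0.0768), tumour 1 (-1.01, 0.0835) or tumour 2 (-1.20, 0.0643) was left out.

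The sestrins restrain the growth kinase complex mTORC1 when leucine is scarce or cells are stressed. Sesn2, which the stress factor ATF4 also induces, stood at 9.50 in pool 1, 9.03 in pool 2, 8.35 in tumour 1 and 8.28 in tumour 2. The tumours were close together and both below the pools. It fell by 0.95 (SE 0.17, adjusted p 0.0254), a 1.94-fold lower level, but was not called when pool 1 (-0.72, adjusted p 0.0747), tumour 1 (-0.99, 0.0554) or tumour 2 (-0.92, 0.0722) was left out.

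Sesn1 is the relative of Sesn2 that p53 and FOXO factors induce. It stood at 9.46 in pool 1, 9.56 in pool 2, 9.17 in tumour 1 and 9.13 in tumour 2. Its groups were separate with little spread, but the difference was small, at -0.37 (SE 0.10, 95% interval -0.62 to -0.11, adjusted p 0.0706). Calls were gained after cyclic loess (-0.43, adjusted p 0.0482) and among genes above the median level (adjusted p 0.0458). Whether the sestrins differ from each other in their change was not tested.

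Zmat3, a zinc finger protein that binds RNA and takes part in splicing and transcript stability, stood at 9.82 in pool 1, 9.44 in pool 2, 9.003 in tumour 1 and 9.17 in tumour 2. Both tumours lay below both pools. The difference was -0.54 (SE 0.16, 95% interval -0.95 to -0.14) and was not called (adjusted p 0.0845), nor was it in any of the 15 alternative settings.

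**Figure D3:**
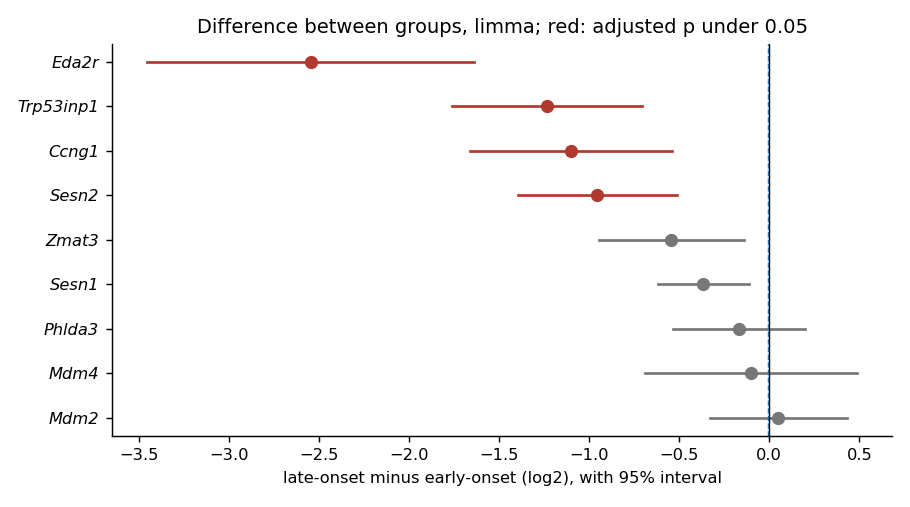
Late-onset minus early-onset difference (log2, x axis) of the 9 members with limma's 95% interval, red where the adjusted p is under 0.05, and a dashed line at the median of all genes (-0.01). Eda2r, Trp53inp1, Ccng1 and Sesn2 are red and left of 0, and the intervals of Mdm2, Mdm4 and Phlda3 cross 0.

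The members also differed within the early-onset group. Pool 1 was higher than pool 2 in 8 of the 9, with a median gap of 0.38, while it was higher in 46.3% of all genes, with a median of -0.02. The gap was 0.88 for Eda2r, 0.62 for Ccng1, 0.60 for Trp53inp1 and 0.47 for Sesn2, and Sesn1 was the exception at -0.10. Between the tumours the median gap of the members was 0.02. These are 2 arrays against each other, with no test.

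Cell cycle genes went the other way between the pools. The list held genes that p53 is known to repress through p21 and the DREAM complex, a repressor of cell cycle promoters. Of the 17 measured, 1 was higher in pool 1, with a median of -0.37, and Plk1, a mitotic kinase, stood at 9.23 in pool 1 and 9.86 in pool 2. The 44 other measured p53 targets were less one-sided, with 25 higher in pool 1 and a median of 0.02. Markers of other cell types moved between the pools as well. Pool 1 was higher in 12 of 14 microglia and macrophage markers (median 0.21) and in 8 of 8 endothelial and mural markers (median 0.60), in 0 of 8 astrocyte markers (median -0.34) and in 0 of 7 oligodendrocyte markers (median -0.64). Their part in the members' gap was not tested.

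**Figure D4:**
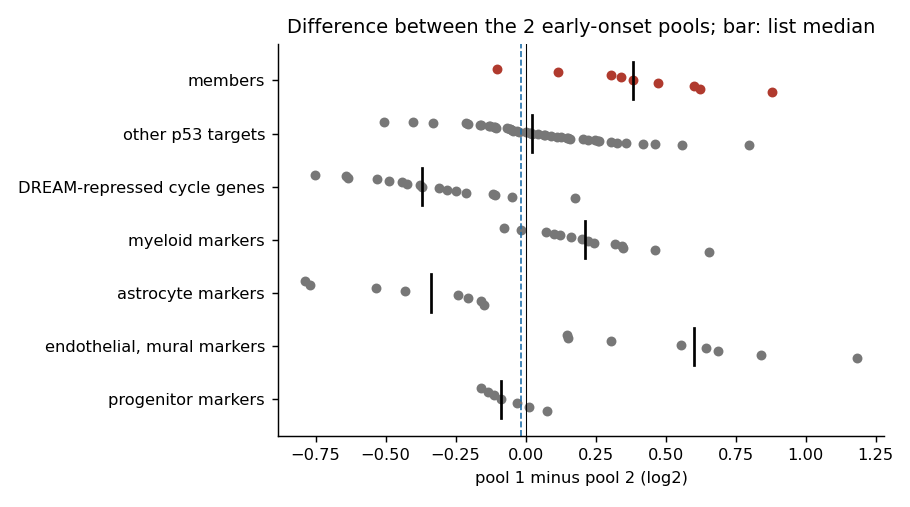
Pool 1 minus pool 2 (log2, x axis) for the genes of 7 lists, with a black bar at each list's median and a dashed line at the median of all genes (-0.02). The members lie mostly right of 0 (median 0.38) and the DREAM-repressed cell cycle genes mostly left (median -0.37).

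Beyond the members, other p53 targets moved both ways. Of 48 listed, 44 were measured, and 6 fell and 2 rose, a share of 18.2% against 14.7% of all genes. Their median was -0.16, beside -0.01 over all genes. After each array was centred on its median it was 0.00, beside 0.15 over all genes, since centring raised every difference alike. Whether the list differs from all genes was not tested, and no direction of the list as a whole is given. Without pool 1 or pool 2 the count of calls was 1 each time, without tumour 1 it was 5 and without tumour 2 it was 7. Cdkn1a, the gene of p21, Bax, Gls2 and Gdf15 were not analysed here.

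Among 14 targets of arrest and DNA repair, 2 fell and 0 rose, a share of 14.3% against 14.7% of all genes. Btg2, an antiproliferative gene, stood at 9.47 and 9.52 in the pools and 8.68 and 8.26 in the tumours, and fell by 1.03 (adjusted p 0.0166). Ddb2, a DNA damage sensor of nucleotide excision repair, fell by 0.83 (adjusted p 0.0229). The call of Btg2 was lost without either pool and that of Ddb2 without pool 2 or tumour 2. The arrest gene Gadd45a had a difference of 0.01 (adjusted p 0.968) and was picked with its value known.

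Of 12 cell death targets, 2 rose and 0 fell, a share of 16.7% against 14.7% of all genes. In the robust fit, after quantile normalization or cyclic loess, with either dim-gene filter and with the replicate block, the count called lower was 1. Siva1, which encodes a death receptor adaptor, rose by 0.69 (adjusted p 0.0179), and Trp53i11 rose by 0.57 (0.0209). The exonuclease gene Aen had a difference of -0.84 (adjusted p 0.0521) and was likewise picked with its value known. The calls of Siva1 and Trp53i11 were both lost without either pool, that of Siva1 also without tumour 2 and that of Trp53i11 also without tumour 1.

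Of 12 targets of metabolism and autophagy, 4 fell and 0 rose, a share of 33.3% against 14.7% of all genes. They were the epoxide hydrolase gene Ephx1 (-0.74, adjusted p 0.0125), the proline breakdown gene Aldh4a1 (-0.64, 0.0189), the neuronal carnitine palmitoyltransferase gene Cpt1c (-0.57, 0.0211) and the xylulose reductase gene Dcxr (-0.56, 0.0333). All 4 lost the call without either pool. Aldh4a1 also lost it without tumour 1, Cpt1c without tumour 2, and Dcxr without either tumour, after quantile normalization (adjusted p 0.0719) and after each array was centred on its median (0.0669). After centring, the list had 3 lower and 1 higher. Among 6 targets that feed back on p53, 0 were called by limma and 1 had an unadjusted p under 0.05. The ubiquitin ligase gene Cop1, on chromosome 1, had a difference of 0.48 (adjusted p 0.137) and Trim8 one of -0.21 (0.33).

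**Figure D5:**
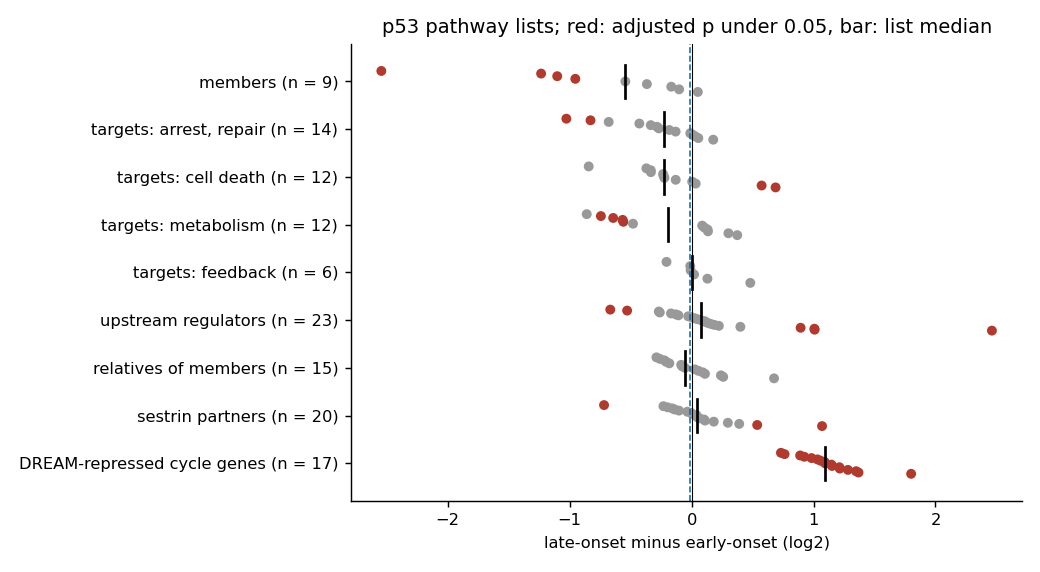
Late-onset minus early-onset difference (log2, x axis) of each measured gene in 9 lists, red where the limma adjusted p is under 0.05, with black bars at list medians and a dashed line at the median of all genes (-0.01). The DREAM-repressed cell cycle genes all lie right of 0 (median 1.09), and the members lie furthest left (median -0.54). Members and lists were chosen with earlier results of these data known.

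Upstream of p53, 4 of 23 measured regulators rose and 2 fell, a share of 26.1% against 14.7% of all genes. Cdkn2a, whose ARF product restrains Mdm2, stood at 8.09 in pool 1, 7.86 in pool 2, 10.29 in tumour 1 and 10.59 in tumour 2. It rose by 2.46 (SE 0.15, adjusted p 0.00208), a 5.51-fold higher level, and was called in all 15 alternative settings. The same gene encodes p16, and which of its transcripts the probe set reads was not examined. The checkpoint kinase genes Chek2 (1.01, adjusted p 0.00705) and Chek1 (0.89, 0.00804) rose, as did Mtbp (1.01, 0.0133), which encodes an Mdm2-binding protein. Chek2 lost its call without either pool, Chek1 without pool 2 and Mtbp without pool 1. The genes that fell were Ppp1r13b (-0.67, adjusted p 0.0325), which encodes the p53 cofactor ASPP1, and Cul9 (-0.53, 0.0357), a cullin that binds p53, both picked with their values known. Over the list 2 rose and 0 fell without either pool.

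All 17 measured cell cycle genes from the list known to be repressed through p21 and DREAM rose, beside 6.59% of all genes. Their median was 1.09. Trp53 and the p21 gene Cdkn1a were not analysed here, and the part of p53 in this rise was not tested. Nek2 (1.80, adjusted p 0.00372), Aurka (1.37, 0.00886), Plk1 (1.35, 0.0182) and Bub1 (1.28, 0.0032), 4 kinases of mitosis, led the list. The count of calls was 5 without pool 1, 12 without pool 2, 13 without tumour 1 and 11 without tumour 2, where Plk1 was among those not called.

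The genes nearest to 3 of the called members across the 4 arrays were found by Euclidean distance between log2 values centred per gene. Nearest to Ccng1 were Lipa (distance 0.06), Tmem104 (0.12) and Otulinl (0.16). For Trp53inp1 they were Otulinl (0.10), Rnf128 (0.10) and Ccng1 itself (0.20). For Eda2r they were Vstm2a (0.43), Ly9 (0.47) and Cp (0.49). The likeness is a description over 4 arrays.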

How the data were processed

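Total RNA was labelled with biotin and measured on Affymetrix mouse arrays. The values deposited by the authors are on the log2 scale, 1 per probe set. The submitters' processing notes name RMA, and affy with version 3.4.2, but no settings. RMA usually includes quantile normalization, which hides a shift of most genes together, and it compresses changes of dim genes. The 34760 probe sets ran from 2.17 to 14.8, with array medians between 6.63 and 6.71. The number of arrays limits the precision.

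In the platform annotation 21640 probe sets named 1 gene and were used. Those naming several genes (1321) or no gene (11799) were not. RefSeq (GRCm38.p6) supplied chromosomes, and it matched 21553 probe sets by Entrez identifier with 0 symbols changed. Late-onset was set against early-onset by lmFit and eBayes (limma 3.58.1, R 4.3.3), with Benjamini-Hochberg adjustment over all 19937 genes. The fit had 2 residual and 3.27 prior degrees of freedom and was tested on simulated data. Alternatives covered the variance model, scaling, filters, probe set rule, weights per array, a block for replicate number and each sample left out.

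The members and lists were chosen with earlier results of these data known. Named genes are the 10 members, Cdkn1a, Cdkn2a, Xist and Ddx3y, the last not analysed here. Uty was taken after its values were seen. Beside these, up to 4 called genes of each pathway list were named by size, or 2 by moderated t where none was called. The rule also took up to 2 called genes of each cell type list, of which Slc1a2, Gjb6 and Rgs5 are not described. Mios, Wdr24 and Wdr59 were named outside the rule, as the other GATOR2 genes measured. The 3 genes nearest to each of 3 members were taken among genes above the median level, passing over predicted genes. Lists are described by counts and medians, without a set test. The cell type lists not described with the members gave these calls: of 8 endothelial and mural markers 1 fell, and of 6 T and B cell markers 0 were called by limma (0 at an unadjusted p under 0.05).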

Additional observations from a re-analysis of the deposited data

How the results depend on the processing

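Of the 9 members, Eda2r and Zmat3 kept their direction and their side of the threshold in all 15 settings. With the replicate number as a block, Ccng1 (-1.10) lost its call (adjusted p 0.0709), and 1833 genes were called over the whole array, against 2931. Ddb2 (adjusted p 0.0604), Trp53i11 (0.0535), Cpt1c (0.0563), Dcxr (0.0795), Sec13 (0.0897) and Pdgfra (0.0863) also lost their calls with the block. The numbers do not pair the samples: same-numbered deviations correlated at -0.04. After cyclic loess Sesn1 (-0.43) was called and Mdm2 turned to -0.027, as it did after quantile normalization (-0.0048). Among genes above the median Sesn1 (-0.37) was called. Centring each array on its median moved the median of all genes to 0.15 and turned Mdm4 to 0.057. It called 4049 genes, 2839 higher and 1210 lower, against 1313 and 1618. The median of the members was then -0.38.

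Leaving out 1 sample gave 1 to 4 called members, 9 to 27 of 119 other pathway genes (34 with all samples) and 850 to 2577 of all genes. The differences then ran from -0.10 to 0.20 for Mdm2, -0.44 to 0.24 for Mdm4, -1.41 to -0.79 for Ccng1, -1.54 to -0.93 for Trp53inp1, -1.19 to -0.72 for Sesn2 and -0.34 to 0.0032 for Phlda3. In each such fit 1 group held a lone sample, assumed to vary like the other group. Each such fit also had fewer samples, and the cause of these changes was not tested. Background correction could not be varied on the deposited summaries.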

Other observations

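Relatives of the members were measured as well. Of 15 such genes 0 were called by limma, 1 had an unadjusted p under 0.05, and the median was -0.05. In the alternative settings 0 or 1 was called. Closest to the threshold was Phlda1, a relative of Phlda3, which stood at 10.71 and 10.70 in the pools and 11.17 and 11.59 in the tumours (difference 0.68, adjusted p 0.0501). Zmat5 had a difference of 0.26 (adjusted p 0.227). The p53 family genes Trp63 and Trp73, chosen after their values were seen, had differences of -0.08 and 0.11. Other relatives chosen in the same way were Ccng2 with 0.24, Sesn3 with -0.18 and Trp53inp2 with -0.09.

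Of 20 measured genes that act with the sestrins in mTORC1 control, 2 rose and 1 fell, at a median of 0.04. The share called was 15.0%, close to the 14.7% of all genes. Seh1l and Sec13 encode subunits of GATOR2, the complex that sestrins bind, and both also belong to the nuclear pore. Seh1l stood at 9.31 and 9.22 in the pools and 10.34 and 10.33 in the tumours and rose by 1.07 (SE 0.10, adjusted p 0.00477). Sec13 rose by 0.54 (adjusted p 0.0412), a call lost without either pool, without tumour 2 and after cyclic loess. Castor2, which encodes an arginine-sensor relative that binds the same complex, fell by 0.72 (adjusted p 0.0199), and its call was lost without either pool. The other GATOR2 genes measured, Mios, Wdr24 and Wdr59, had differences of 0.06, 0.04 and 0.10.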
